A study of Mus musculus with 16 samples.

Results

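The 4 arrays described here come from cultured cortical neurons in which an shRNA targeted c-Fos, the product of Fos, taken after 3 h or 6 h of KCl, with 2 arrays at each time, out of 16 arrays in 8 groups. They were chosen by their array titles, and the question is what changed between 3 h and 6 h of depolarisation in neurons with reduced Fos mRNA. All 16 arrays are mouse 430 2.0 expression arrays hybridised with material from cultured cortex of embryonic day 16.5 C57BL/6 mice. Lentivirus was applied on day 5 in vitro for 6 h with 6 µg of polybrene per ml, and the neurons were silenced and then stimulated on day 7. The control arm, with the same times, carried a lentivirus with an shRNA against firefly luciferase, so every culture had been infected. The arrays of a group are labelled biological replicates, with no word on separate dissections, so a p-value here measures the spread between these arrays. The shRNA construct is not described beyond its target, and a whole culture was measured, so fewer cells of a type and less RNA per cell cannot be told apart.

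Raised extracellular KCl depolarises neurons and lets calcium in through voltage-gated channels. Calcium signalling first switches on early-response genes, many of which encode transcription factors such as the Fos, Egr and Nr4a families, and these come on without new protein synthesis. Genes for secreted peptides, enzymes, channels and synaptic proteins follow more slowly, and dimers of Fos and Jun proteins, called AP-1, are among the factors that act on them.

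Across 13915 tested genes, 1249 were higher at 6 h than at 3 h in the c-Fos shRNA neurons (8.98%) and 1139 were lower (8.19%), at an adjusted p under 0.05 in a limma fit over all 16 arrays. Genes for late neuronal effectors such as Acan, Nptx2 and Pcsk1 were among those that rose, and early-response transcription factor genes such as Klf4, Fosb and Nr4a2 among those that fell. Changes are log2(intensity + 16) at 6 h minus 3 h after quantile normalization, given with ± standard error, and they understate the change of dim genes. Most were small: the median size among called genes was 0.50, while 98 genes rose and 64 fell by at least 2-fold. Lack of overlap was common: both 6 h arrays lay above both 3 h arrays in 3934 of the 13915 genes and below in 3777. That fit leaves out the replicate numbers, which were taken to pair the arrays. Blocking on the replicate number, 2312 of the 13915 genes were higher and 2380 lower. List counts with the block are to be set against these larger numbers, not against 8.98% and 8.19%. Without 1 of the 4 arrays the called genes numbered 1123 (c-Fos 6 h replicate 1), 1267 (c-Fos 3 h replicate 2), 1334 (c-Fos 3 h replicate 1) and 1617 (c-Fos 6 h replicate 2), against 2388 with all arrays.

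Neuronal genes were bright on these arrays, although intensities of different probe sets do not give shares of cells. The pan-neuronal gene Stmn2 had an intensity between 17032 and 17343 on the 4 arrays and Map2 between 12903 and 14129. Astrocyte genes were uneven: Slc1a3 lay between 4817 and 5411, but Gfap between 79.0 and 115 and S100b between 27.0 and 60.7. So were oligodendrocyte lineage genes, with Olig1 between 5938 and 7796, but Mog between 10.2 and 29.3 and Mag between 5.85 and 24.9. Among progenitor and dividing cell genes Sox2 lay between 5146 and 5906, Mki67 between 876 and 1055 and Eomes between 88.8 and 130. Of the microglial genes Itgam was the dimmest, between 5.32 and 13.7. Cd68 lay between 54.2 and 124, and Csf1r, the brightest, between 160 and 187. The endothelial gene Cldn5 lay between 26.6 and 39.0. None of 10 tested astrocyte, 3 microglial, 7 oligodendrocyte lineage or 7 vascular and fibroblast markers was called between the times. With the replicate block, 3 oligodendrocyte lineage markers were higher (Olig1, Sox10 and Mbp, adjusted p = 0.0324, 0.0216 and 0.00252), 1 microglial marker was higher (Cd68, adjusted p = 0.00403) and 1 astrocyte marker lower (Aldoc, adjusted p = 0.0338). Each of the 3 was higher at 6 h on the array of the same replicate number, Olig1 with 5938 and 6507 at 3 h, against 6972 and 7796 at 6 h, Mbp with 416 and 609 at 3 h, against 646 and 828 at 6 h and Sox10 with 163 and 265 at 3 h, against 239 and 389 at 6 h. The summed intensity of each list's tested markers, without those dropped as dim, was taken on each array. It was 21950 to 25658 at 3 h and 20903 to 24798 at 6 h for astrocytes, and 11683 to 14734 and 12893 to 16334 for the oligodendrocyte lineage. For microglia it was 279 to 282 and 313 to 341, and for vascular cells and fibroblasts 696 to 1878 and 693 to 1694. Dcn, a fibroblast gene, had 281 and 1136 at 3 h, against 271 and 1005 at 6 h, and separated the replicate numbers rather than the times. The 18S rRNA 3′ probe set was at 3839 and 4164 at 3 h and at 4501 and 4558 at 6 h, the Actb 3′ to 5′ ratio at 1.19 and 1.20 against 1.18 and 1.18, and the Gapdh ratio at 0.917 and 0.907 against 0.955 and 0.930. None of these 3 measures overlapped between the times, the Actb ratio being lower and the Gapdh ratio higher at 6 h. The 18S rRNA 5′ probe set did overlap, with 6637 and 5464 at 3 h, against 6692 and 5789 at 6 h. It was higher in replicate 1 at both times. The part of all these measures and of the markers in the results was not tested.

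Fos itself, the shRNA's target, was 3763 and 4297 at 3 h, against 3142 and 3340.0 at 6 h. The control arm had 13638 and 13308 at 3 h, against 11960.4 and 11898 at 6 h, so every c-Fos shRNA array lay below every control array. Both 6 h arrays lay below both 3 h arrays, but the change of -0.29 ± 0.10 was not called (adjusted p = 0.0746). With the replicate block it was (adjusted p = 0.0204). In the control arm the change was -0.18 (adjusted p = 0.276).

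Early-response transcription factor genes went down between the times: of 18 tested, 9 fell and none rose, against 8.19% of all genes falling. Their median change was -0.50, against 0.0039 over all tested genes. Klf4, which encodes a zinc-finger factor, went from 1186 and 1255 at 3 h to 518 and 492 at 6 h. Both 6 h arrays lay far below both 3 h arrays, a change of -1.23 ± 0.20 (adjusted p = 0.0016). Fosb, the Fos relative, was 2733 and 2624 at 3 h, against 1344 and 1234 at 6 h, and fell by 1.03 ± 0.22 (adjusted p = 0.00661). Nr4a2, an orphan nuclear receptor gene, was 9901 and 9363 at 3 h, against 5515 and 5342 at 6 h, with a change of -0.81 ± 0.095 (adjusted p = 0.000225). In both genes the times did not overlap and the replicates lay close together.

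The zinc-finger genes Egr2 (-0.82 ± 0.14) and Egr4 (-1.01 ± 0.21), the nuclear receptor gene Nr4a1 (-0.51 ± 0.14), the activity-dependent factor gene Npas4 (-0.60 ± 0.093), Junb (-0.69 ± 0.081) and the stress-responsive gene Atf3 (-0.90 ± 0.19) also fell. The call of Nr4a1 was lost without any array but c-Fos 6 h replicate 1, and that of Egr4 without c-Fos 3 h replicate 2. Atf3 lost its call without c-Fos 3 h replicate 2 or c-Fos 6 h replicate 1. The others were not called: Egr1 was at -0.23, Egr3 at -0.50, Nr4a3 at -0.18, Klf10 at -0.34, Maff at -0.43, Ier2 at -0.13, Ier5 at 0.0081 and Klf2 at 1.12. Klf2 stood apart from the list in sign, with 25.7 and 151 at 3 h, against 130.2 and 204 at 6 h, but its standard error was 0.61 (adjusted p = 0.256). At 6 h 15 of the 18 were still called above their 0 h level, Klf10 was called below it and Klf2 and Ier5 were not called. Npas4 averaged 108 ± 23.3 (SD, n = 2) at 0 h and 4553 ± 86.9 at 6 h, and Fosb 22.6 ± 8.24 and 1289 ± 77.7. With the block 14 of the 18 were lower, where 2380 of all 13915 genes were. The 5 added were Fos, Egr3, Nr4a3, Klf10 and Maff (adjusted p = 0.0204, 0.015, 0.0472, 0.00567 and 0.00122). Without 1 array the count was 6 (c-Fos 3 h replicate 2) to 9.

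In the control arm 6 of the same 18 genes fell, with a median of -0.32, and in none was the change between the arms itself different at an adjusted p under 0.05. Nr4a1 was at -0.036 there (adjusted p = 0.908), Npas4 at -0.23 (adjusted p = 0.111, and 0.0399 with the block) and Egr4 at -0.27 (adjusted p = 0.472). The tests of the difference gave -0.47 ± 0.20 for Nr4a1 (adjusted p = 0.846), -0.37 ± 0.13 for Npas4 (adjusted p = 0.69) and -0.74 ± 0.30 for Egr4 (adjusted p = 0.799).

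Of 18 early-response signalling and effector genes, 3 fell (16.7%, against 8.19% of all genes) and none rose. Gadd45b and Gadd45g, which encode small stress-induced proteins that act in growth arrest and DNA demethylation, fell, with changes of -1.06 ± 0.14 (adjusted p = 0.000539) and -1.07 ± 0.24 (adjusted p = 0.00979). Gadd45b was 392 and 539 at 3 h, against 193 and 232 at 6 h, with no overlap. The third was Nr4a1, which is also in the list above. Arc, the postsynaptic cytoskeletal gene, was at -0.12 (adjusted p = 0.754), Homer1 at 0.039 and Dusp1, a MAP kinase phosphatase gene, at 0.055. Gadd45b kept its call without each array, and without c-Fos 3 h replicate 2 it was the only 1 of the 3 left.

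**Figure D1:**
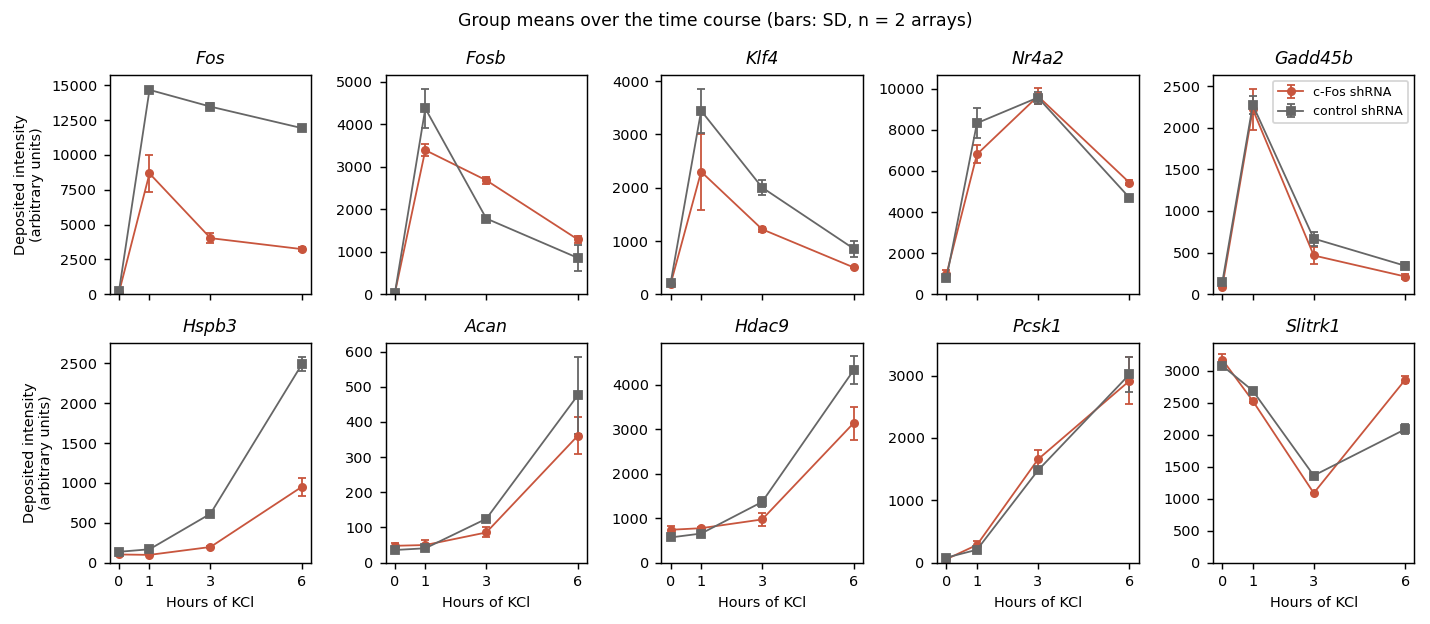
Mean deposited intensity (arbitrary units, linear axis) over hours of KCl in the c-Fos shRNA and control shRNA arms, with bars for the SD of 2 arrays. The top row shows early-response genes, lower at 6 h than at 3 h, and the bottom row genes that were higher at 6 h, among them Slitrk1, which at 3 h lay below its 0 h level.

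Among AP-1 and related basic leucine zipper genes, 4 of 15 fell (26.7%, against 8.19% of all genes) and 1 rose, with a median of -0.29. Fosb, Junb and Atf3 are described above. Fosl1, which encodes Fra-1, was 218 and 247 at 3 h, against 158 and 151 at 6 h, and fell by 0.54 ± 0.15 (adjusted p = 0.0254), with no overlap but a call that was lost without any of 3 of the arrays (both 3 h arrays and c-Fos 6 h replicate 2). Crem, which encodes cAMP-responsive activators and the inducible repressor ICER, was 3211 and 3101 at 3 h, against 4446 and 4926 at 6 h, and rose by 0.58 ± 0.11 (adjusted p = 0.00337). Of its 4 probe sets 2 were called higher and none lower. Crem was thus the only member called higher, and the control arm had 0.52 for it (adjusted p = 0.0062).

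Unlike Junb, the genes Jun and Jund did not pass the test: Jun was at -0.21 ± 0.16 (adjusted p = 0.449) and Jund at -0.051 ± 0.049 (adjusted p = 0.566). Fosl2, which encodes Fra-2, was 7998 and 7145 at 3 h, against 5691 and 5493 at 6 h, and had -0.42 ± 0.16 (adjusted p = 0.0963). With the replicate block Fosl2, Jun, Maff and Atf4 were called as well (adjusted p = 0.0313, 0.0211, 0.00122 and 0.0126), which gave 9 of 15 lower. Maff was at -0.43 ± 0.18, Atf4, a stress-response activator gene, at -0.33 ± 0.11, and Batf3, Jdp2, Mafk and Mafg lay between -0.18 and 0.14.

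Of 14 genes described as AP-1 targets, 2 rose (14.3%, against 8.98% of all genes) and 1 fell (7.14%, against 8.19%), with a median of 0.10. The risers were Dusp14, a phosphatase gene, at 0.78 ± 0.17 (adjusted p = 0.0079), and Cd44, which encodes a hyaluronan receptor, at 0.43 ± 0.12 (adjusted p = 0.024), and the gene that fell was Fosl1. The call of Cd44 was lost without any array but c-Fos 6 h replicate 2 and with the mean over its probe sets, and that of Dusp14 without c-Fos 3 h replicate 1, which left 0 rises. With the block 3 were higher and 3 lower. Emp1, which encodes an epithelial membrane protein, was 66.1 and 76.7 at 3 h, against 96.1 and 88.8 at 6 h with c-Fos shRNA and 421 and 346 at 3 h, against 1105 and 874 at 6 h with control shRNA. Its change was 0.32 ± 0.21 (adjusted p = 0.359) against 1.35 ± 0.21 (adjusted p = 0.00113), and the difference between the arms was -1.02 ± 0.30 (adjusted p = 0.514), not called.

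Genes for late activity-induced neuronal effectors went up: 7 of 15 tested rose and none fell, against 8.98% of all genes rising, with a median of 0.53. Acan encodes aggrecan, a proteoglycan of the nets around some neurons, and was 75.5 and 95.6 at 3 h, against 324 and 397 at 6 h. It rose 3.81-fold, or 1.93 ± 0.18 (adjusted p = 8.17e-05), and at 0 h it had averaged 47.6 ± 9.01. Pcsk1, a prohormone convertase gene, was 1764 and 1545 at 3 h, against 3181 and 2648 at 6 h, and rose by 0.80 ± 0.15 (adjusted p = 0.0033). For both genes each 6 h array was well above each 3 h array.

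Nptx2, which encodes a secreted pentraxin that clusters AMPA receptors, was 644 and 842 at 3 h, against 1201 and 1464 at 6 h (0.83 ± 0.18, adjusted p = 0.0076). Rasgrp1, a calcium-responsive activator of Ras, was 548 and 695 at 3 h, against 1202 and 1388 at 6 h (1.03 ± 0.19, adjusted p = 0.00318). Cartpt, a neuropeptide precursor gene, was 211 and 357 at 3 h, against 491 and 752 at 6 h (1.11 ± 0.34, adjusted p = 0.0427). In these 3 genes the arrays separated by time, but replicate 2 was the higher array at both times. Nppc, which encodes C-type natriuretic peptide, rose by 0.82 ± 0.20 (adjusted p = 0.0161), and Scg2, the secretogranin gene, by 0.26 ± 0.065 (adjusted p = 0.0164).

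Bdnf, the neurotrophin gene, was 2671 and 3221 at 3 h, against 3833 and 4561 at 6 h, with 0.53 ± 0.23 (adjusted p = 0.142), and Vgf, another secreted peptide precursor gene, was at 0.022 (adjusted p = 0.875). Crh was at 0.77 ± 0.55 (adjusted p = 0.404). None of these 3 passed the test, and nor did Serpinb2 (0.47), Inhba (0.18), Stc1 (0.36), Timp1 (-0.18) or Sertad1 (-0.25). With the block 10 of the 15 were higher, with Bdnf, Crh and Stc1 added (adjusted p = 0.00361, 0.0058 and 0.0196), and Sertad1 was lower (adjusted p = 0.037). The control arm had 6 of 15 higher and a median of 0.70. The count was 3 without c-Fos 6 h replicate 2, 4 without c-Fos 3 h replicate 1 or c-Fos 6 h replicate 1 and 5 without c-Fos 3 h replicate 2, and the call of Cartpt was also lost under 6 other settings, with an adjusted p of up to 0.282.

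The promoters of 3 of these late genes that rose, and that of Hdac9 described below, are shown as examples with letters of an AP-1 or cAMP response element. Other named genes hold such letters too and are not shown. Among them are the late genes Bdnf and Serpinb2, which did not pass the test, and Plch2, which fell. They run from 250 bases before to 50 bases after a RefSeq transcription start (build GRCm38.p6), 5′ to 3′ on the gene's strand. Capitals mark TGACGTCA, the cAMP response element (CRE), or TGANTCA, the AP-1 element, each searched on both strands. The CRE letters begin 112 bases before the start of Cartpt (chr13:99900634-99900933, minus strand), 78 before that of Pcsk1 (chr13:75089607-75089906, plus strand) and 68 before that of Scg2 (chr1:79439977-79440276, minus strand). The AP-1 letters begin 57 bases before 1 of 2 starts of Hdac9 (chr12:34528840-34529139, minus strand), and the other Hdac9 window holds neither.
Cartpt: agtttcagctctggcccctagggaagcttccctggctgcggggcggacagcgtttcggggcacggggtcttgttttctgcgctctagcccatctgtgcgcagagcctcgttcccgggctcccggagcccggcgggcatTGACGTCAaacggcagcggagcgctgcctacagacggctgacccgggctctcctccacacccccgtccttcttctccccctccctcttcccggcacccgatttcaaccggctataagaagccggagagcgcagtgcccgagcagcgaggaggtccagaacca
Pcsk1: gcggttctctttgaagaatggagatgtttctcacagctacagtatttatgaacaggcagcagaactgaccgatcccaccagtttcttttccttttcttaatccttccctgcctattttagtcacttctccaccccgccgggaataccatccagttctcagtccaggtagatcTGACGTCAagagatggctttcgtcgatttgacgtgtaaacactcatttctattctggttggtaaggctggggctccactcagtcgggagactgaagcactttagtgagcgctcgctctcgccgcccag
Scg2: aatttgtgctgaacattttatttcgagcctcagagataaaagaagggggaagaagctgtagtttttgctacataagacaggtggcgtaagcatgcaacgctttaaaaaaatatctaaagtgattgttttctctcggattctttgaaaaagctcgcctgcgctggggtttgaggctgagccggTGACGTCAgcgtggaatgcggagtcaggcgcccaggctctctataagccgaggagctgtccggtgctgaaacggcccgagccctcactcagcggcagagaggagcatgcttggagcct
Hdac9: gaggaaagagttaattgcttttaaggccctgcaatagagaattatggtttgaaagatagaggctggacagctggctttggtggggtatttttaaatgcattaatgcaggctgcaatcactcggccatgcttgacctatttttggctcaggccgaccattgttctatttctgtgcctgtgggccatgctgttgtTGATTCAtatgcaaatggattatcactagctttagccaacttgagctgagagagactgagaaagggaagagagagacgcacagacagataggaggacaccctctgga

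The share of genes with such letters was close to that of all tested genes. Of the 1249 genes that rose, 1012 had a window, and 5.73% of these held TGANTCA. The share was 5.68% for 933 of the genes that fell and 6.23% for 11215 of all tested genes. TGACGTCA was in 3.85%, 3.43% and 3.36%. The 2 motifs overlapped in 0 windows. Of 11 late effectors with a window 2 held the AP-1 letters and 3 the CRE, and of 14 early-response transcription factors 0 and 1 did. A match describes letters only, and these windows do not reach distant regulatory sequence.

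Of 20 neuropeptide and granin genes, 5 rose (25%, against 8.98% of all genes) and none fell, with a median of 0.15. Besides Cartpt, Nppc and Scg2 these were Pnoc, the nociceptin precursor gene, at 0.95 ± 0.17 (adjusted p = 0.00264), and Sst, the somatostatin gene, at 0.29 ± 0.07 (adjusted p = 0.0153). Pnoc was 241 and 219.9 at 3 h, against 399 and 499.7 at 6 h, without overlap. Tac1 (0.62), Penk (0.18), Npy (0.08), Vip (0.15) and Adcyap1 (0.043) were not called. With the block 8 were higher, the 3 added being Tac1, Cort and Crh (adjusted p = 0.000256, 0.0335 and 0.0058). Pnoc kept its call without each array, while the list's count fell to 1 without c-Fos 6 h replicate 2 and to 2 without any other array.

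Of 18 potassium channel genes, 6 rose (33.3%, against 8.98% of all genes) and 2 fell (11.1%, against 8.19%), with a median of 0.22. Kcns2, which encodes a silent subunit that modifies Kv2 channels, was 266 and 278 at 3 h, against 772 and 752 at 6 h and rose 2.73-fold, by 1.45 ± 0.21 (adjusted p = 0.00077), although only 1 of its 2 probe sets was called. The other rises were in the Shaker-type genes Kcna1 (0.95 ± 0.29) and Kcna4 (0.71 ± 0.18), the inward rectifier gene Kcnj4 (0.59 ± 0.16), Kcnc1 (0.32 ± 0.10) and Kcnf1 (0.28 ± 0.076). The accessory subunit gene Kcnab1 (-0.79 ± 0.18) and the ERG channel gene Kcnh2 (-0.55 ± 0.14) fell. Kcns2 alone among the risers kept its call without each array. Counts of rises were 1 to 3 without 1 array (1 without c-Fos 6 h replicate 2) and 2 without further normalization, and 10 were higher with the block.

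Of 19 calcium and sodium channel subunit genes, 5 fell (26.3%, against 8.19% of all genes) and 3 rose (15.8%, against 8.98%). The pore-forming L-type calcium channel genes were among the falls. Cacna1d was 501 and 507 at 3 h, against 136 and 286 at 6 h, a change of -1.27 ± 0.20 (adjusted p = 0.0014), with 1 of its 2 probe sets called. Cacna1c was 1363 and 1323 at 3 h, against 737 and 756 at 6 h, a change of -0.81 ± 0.092 (adjusted p = 0.000191). Its other tested probe set was at -0.15 and not called. Cacna1d and Cacna1c, by the probe set that stood for each, had separate arrays at the 2 times, as in the control arm (-1.43 and -0.83, adjusted p = 0.000661 and 0.000137). Cacna1b, the N-type channel gene (-0.65 ± 0.12), Cacng2, which encodes the AMPA receptor partner stargazin (-0.40 ± 0.095), and the T-type gene Cacna1h (-0.35 ± 0.082) also fell. Cacnb4 (0.52 ± 0.077), Cacng8 (0.51 ± 0.16) and the sodium channel gene Scn3a (0.35 ± 0.074) rose. Without 1 array 3 to 5 fell, with 3 without c-Fos 3 h replicate 1, and 1 or 2 rose, with 1 without c-Fos 6 h replicate 1. With the block 8 were lower and 5 higher.

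Of 17 glutamate receptor genes 5 fell (29.4%, against 8.19% of all genes) and none rose, with a median of -0.30. The AMPA receptor genes Gria4 (-0.56 ± 0.11, adjusted p = 0.0041), Gria1 (-0.46 ± 0.097, adjusted p = 0.00713) and Gria2 (-0.26 ± 0.049, adjusted p = 0.00341) fell, as did Grm5, a metabotropic receptor gene (-0.41 ± 0.065, adjusted p = 0.00129), and the kainate receptor gene Grik4 (-0.37 ± 0.11, adjusted p = 0.0319). Gria1 was 2433 and 2714 at 3 h, against 1711 and 2004 at 6 h, with no overlap. The other bright probe set of Gria4 was at 0.15 and not called, and with the mean over probe sets the calls of Gria2 and Gria4 were lost. The count was 3 without c-Fos 6 h replicate 1, and 9 lower and 1 higher with the block. In the control arm 5 fell and 1 rose, with a median of -0.21. Of 9 GABA-A receptor genes only Gabra4 was called (11.1%, against 8.98% of all genes rising). It was 1958 and 1879.7 at 3 h, against 3011 and 3332 at 6 h and rose by 0.71 ± 0.081 (adjusted p = 0.000199), and with the block Gabrb1 and Gabrg1 were higher too (adjusted p = 0.000113 and 0.0137).

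Postsynaptic scaffold and synaptic organiser genes had 3 rises and 3 falls among 21 (14.3% each, against 8.98% and 8.19% of all genes). Lrrtm4, an adhesion protein gene of excitatory synapses, was 213 and 220.4 at 3 h, against 484 and 483 at 6 h and rose 2.18-fold (1.12 ± 0.14, adjusted p = 0.000272). Dlgap2 (1.05 ± 0.28) and Dlg1 (0.53 ± 0.14), both scaffold genes, rose, and the neuroligin gene Nlgn3 (-0.90 ± 0.28), Homer2 (-0.63 ± 0.069) and Dlgap1 (-0.24 ± 0.064) fell. Of the 6, Lrrtm4 and Homer2 kept their calls without each array, and the counts went down to 1 each way without c-Fos 3 h replicate 1 or c-Fos 6 h replicate 1. Among 20 synaptic vesicle genes 1 rose (5%, against 8.98% of all genes), Sv2c (0.73 ± 0.20, adjusted p = 0.027). That call was lost without any array but c-Fos 3 h replicate 2, while the block gave 2 higher and 2 lower.

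Of 17 unfolded protein response genes 4 fell (23.5%, against 8.19% of all genes), the chaperone gene Hspa5 (-0.31 ± 0.08), Manf (-0.35 ± 0.11), Creld2 (-0.33 ± 0.10) and Pdia6 (-0.28 ± 0.075), with a list median of -0.15. This count was 0 without c-Fos 3 h replicate 2 or c-Fos 6 h replicate 1, and 10 with the block. Of 19 integrated stress response genes 3 rose (15.8%, against 8.98%) and 1 fell (5.26%, against 8.19%): Trib3 (0.89 ± 0.25), Slc3a2 (0.31 ± 0.088) and Asns (0.26 ± 0.079) rose and Ppp1r15a, which encodes the phosphatase subunit GADD34, fell (-0.73 ± 0.092, adjusted p = 0.00032). The 3 rises were lost without any 1 of the 4 arrays, and with the block 5 were higher and 4 lower. Of 17 p53 target and apoptosis genes 3 fell (17.6%, against 8.19%): the pro-apoptotic genes Bbc3 (-0.74 ± 0.099) and Bid (-0.90 ± 0.20) and the survival gene Mcl1 (-0.20 ± 0.057) fell. Bbc3 was the only 1 of these 3 left without c-Fos 3 h replicate 2 or c-Fos 6 h replicate 1, and the block added Cdkn1a and Mdm2 as higher (adjusted p = 0.0233 and 0.0189).

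The glucose transporter gene Slc2a1 rose by 0.87 ± 0.16 (adjusted p = 0.00367) and was 881 and 833 at 3 h, against 1575 and 1584 at 6 h. It was the single call among 17 glucose uptake and glycolysis genes (5.88%, against 8.98% of all genes rising), where the block added 3 lower. Srebf2, the sterol-response factor gene (0.43 ± 0.084), was the single call among 16 cholesterol genes (6.25%). With the block 7 of these were lower, among them the synthesis enzyme genes Nsdhl, Mvk and Mvd (adjusted p = 1.24e-05, 0.000431 and 0.000878).

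Of 32 chromatin modifier genes Hdac9 and Hdac4 (0.56 ± 0.14), both class IIa histone deacetylase genes, rose, and Dnmt1 (-0.32 ± 0.065), Ezh2 (-0.34 ± 0.093), Smarca2 (-0.31 ± 0.067) and Kmt2c (-0.29 ± 0.078) fell, or 6.25% and 12.5%, against 8.98% and 8.19% of all genes. The 4 falls were all lost without c-Fos 6 h replicate 1, and that of Kmt2c without any array. With the block 5 were higher and 10 lower. Of 18 clock genes Npas2 rose (0.88 ± 0.20) and Rora (-0.50 ± 0.16) and Nr1d2 (-0.49 ± 0.14) fell, or 5.56% and 11.1%, against the same shares. Both falls were lost without c-Fos 3 h replicate 2 or c-Fos 6 h replicate 1 and the rise without any array but c-Fos 6 h replicate 1, while the block gave 3 higher and 5 lower. Of 9 interferon response genes 2 fell (22.2%, against 8.19%), Oasl2 (-0.91 ± 0.23) and Irf9 (-0.78 ± 0.17), and both calls were lost without c-Fos 3 h replicate 2. No tubulin or microtubule gene of 20 was called, and 3 were lower with the block. In other lists 2 of 31 proteasome genes fell (5 with the block, 0 without either 6 h array) and 1 of 25 ribosomal protein genes (0 without any 1 array). These were 6.45% and 4%, below the 8.19% of all genes. Of 16 MAP kinase feedback inhibitor genes 2 rose (12.5%, against 8.98%), Dusp14 and Spred3 (0.71 ± 0.14), with Errfi1 lower under the block (adjusted p = 0.00563).

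Neuronal identity lists had 1 or 2 calls each. The shares that rose were 20% of excitatory, 9.09% of inhibitory and 8.33% of pan-neuronal markers, against 8.98% of all genes. The deep-layer transcription factor genes Fezf2 (0.76 ± 0.17, adjusted p = 0.00899) and Tbr1 (0.62 ± 0.11, adjusted p = 0.0025) rose among 10 excitatory markers, and the neurofilament gene Nefm (0.55 ± 0.098, adjusted p = 0.00261) among 12 pan-neuronal ones. Tbr1 was 2321 and 1901 at 3 h, against 3383 and 3109 at 6 h, with no overlap between the times. Of 11 inhibitory markers Sst rose. Of 9 progenitor markers the Notch target gene Hes5 fell by 0.68 ± 0.12 (adjusted p = 0.00195), or 11.1%, against 8.19% of all genes. The call of Fezf2 was lost without c-Fos 3 h replicate 2 or c-Fos 6 h replicate 1. With the block 3 excitatory, 2 inhibitory and 3 pan-neuronal markers were higher and 1, 2 and 2 lower, and the progenitor marker Nes was higher (adjusted p = 0.00348).

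**Figure D2:**
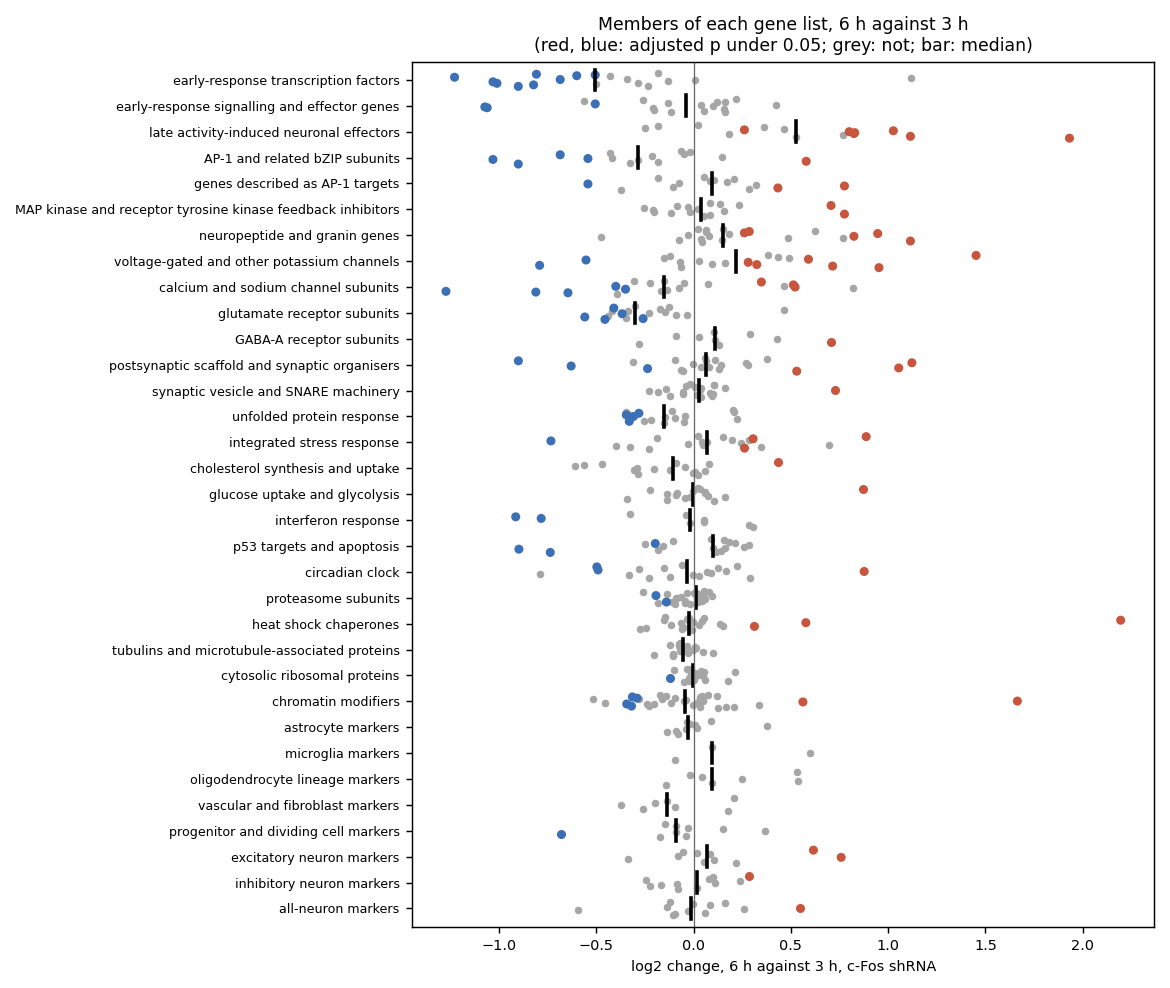
Each point is a tested gene of a list, placed at its log2 change from 3 h to 6 h in c-Fos shRNA neurons, red or blue where the adjusted p was under 0.05, with a bar at the list's median. Medians lie at -0.50 for early-response transcription factors and 0.53 for late effectors, and most other medians lie near the 0.0039 of all tested genes.

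The largest rises, taken among called genes with separate arrays and a mean of at least 7 at the higher time on the log2 scale, were led by Hspb3, a small heat shock protein gene of muscle and nerve. It was 203 and 187 at 3 h, against 1032 and 870.2 at 6 h, a 4.58-fold rise (2.19 ± 0.13, adjusted p = 3.91e-06). Hdac9 was 1068 and 872 at 3 h, against 3399 and 2876 at 6 h (1.66 ± 0.12, adjusted p = 2.04e-05), and both of its probe sets rose. Map3k5, the gene of the stress kinase ASK1, was 445 and 486 at 3 h, against 1359 and 1875 at 6 h (1.73 ± 0.27, adjusted p = 0.00106). Each of these 3 genes lay at least 2-fold higher on every 6 h array than on the 3 h arrays. Hspb3 was the one large riser among 22 heat shock genes, where Hspa4l (0.58 ± 0.091) and Dnajb5 (0.31 ± 0.088) rose too (13.6%, against 8.98% of all genes). Other Hspa4l probe sets lay at 0.705, which was called, and at -0.27, -0.47 and -0.12, which were not. With the mean over probe sets both calls were lost, and that of Dnajb5 also without any array but c-Fos 3 h replicate 2. With the block Dnajb1 was lower (adjusted p = 0.0145).

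Other large rises were in Tll1, a tolloid-like protease gene (1.57 ± 0.21), B3gat2, which makes the HNK-1 carbohydrate (1.63 ± 0.23), Popdc3, a cAMP-binding membrane protein gene (1.64 ± 0.23), and Slc24a4, a sodium-calcium exchanger gene (1.52 ± 0.14). The 20 also held Esr1, the estrogen receptor alpha gene (1.45 ± 0.18, 1 of 3 probe sets), the RNA-binding protein gene Rbpms (1.59 ± 0.23), Rgs13, a brake on G protein signalling (1.43 ± 0.34), Rnf43, a ubiquitin ligase gene that acts on Wnt receptors (1.40 ± 0.33), Nhlrc1, which encodes malin (1.41 ± 0.16), and Ccnq, a cyclin gene (1.40 ± 0.12). Arfgap2 (1.45 ± 0.14, 2 of 4 probe sets), which acts in vesicle traffic, Insyn2b (1.50 ± 0.27), Hdhd3 (1.50 ± 0.13), the cilium gene Rsph4a (1.42 ± 0.33) and the synaptic adhesion gene Slitrk1 (1.37 ± 0.058) completed the 20. The calls of Rgs13, Rsph4a and Rnf43 were lost without 2 or 3 of the 4 arrays (c-Fos 3 h replicate 1 in each case), with adjusted p-values of up to 0.102, 0.0813 and 0.0831.

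The largest falls were led by Sirt5, a mitochondrial deacylase gene, which was 491 and 485 at 3 h, against 152 and 186 at 6 h, 2.74-fold lower (-1.46 ± 0.098, adjusted p = 1.36e-05). Rars2, the mitochondrial arginyl-tRNA synthetase gene, was 654 and 808 at 3 h, against 229.6 and 298 at 6 h (-1.41 ± 0.16, adjusted p = 0.000211). Ndrg1, a stress-responsive gene mutated in an inherited neuropathy, was 2167 and 2357 at 3 h, against 865 and 938 at 6 h (-1.30 ± 0.089, adjusted p = 1.36e-05), and all 5 of its probe sets fell. The arrays of the 2 times were far apart in these 3 genes. The other falls among the 20 were the ubiquitin ligase gene Lrsam1 (-1.36 ± 0.19), Trim71 (-1.30 ± 0.27), the deubiquitinase genes Cyld (-1.24 ± 0.13) and Usp11 (-1.16 ± 0.17) and the F-box gene Fbxo16 (-1.19 ± 0.14).

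They also included Klf16 (-1.36 ± 0.15), Klf4, Carf, a calcium-responsive factor gene (-1.26 ± 0.18), and Supt3 (-1.17 ± 0.10). Cacna1d, the phospholipase gene Plch2 (-1.24 ± 0.15), the cyclin gene Ccno (-1.29 ± 0.19), the kinase genes Nek4 (-1.20 ± 0.10) and Pomk (-1.17 ± 0.17), the cilium gene Bbs2 (-1.17 ± 0.26), Zc3h8 (-1.17 ± 0.28) and C330018D20Rik (-1.27 ± 0.26) made up the rest. Pomk and C330018D20Rik were at -0.053 and -0.17 in the control arm, but the test of the difference gave adjusted p = 0.221 and 0.631, with 0.00799 for Pomk under the block. The calls of Trim71, Bbs2 and Zc3h8 were lost without c-Fos 3 h replicate 2 or c-Fos 6 h replicate 1, and that of C330018D20Rik without the latter, with adjusted p-values of up to 0.0693, 0.101, 0.126 and 0.0514.

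**Figure D3:**
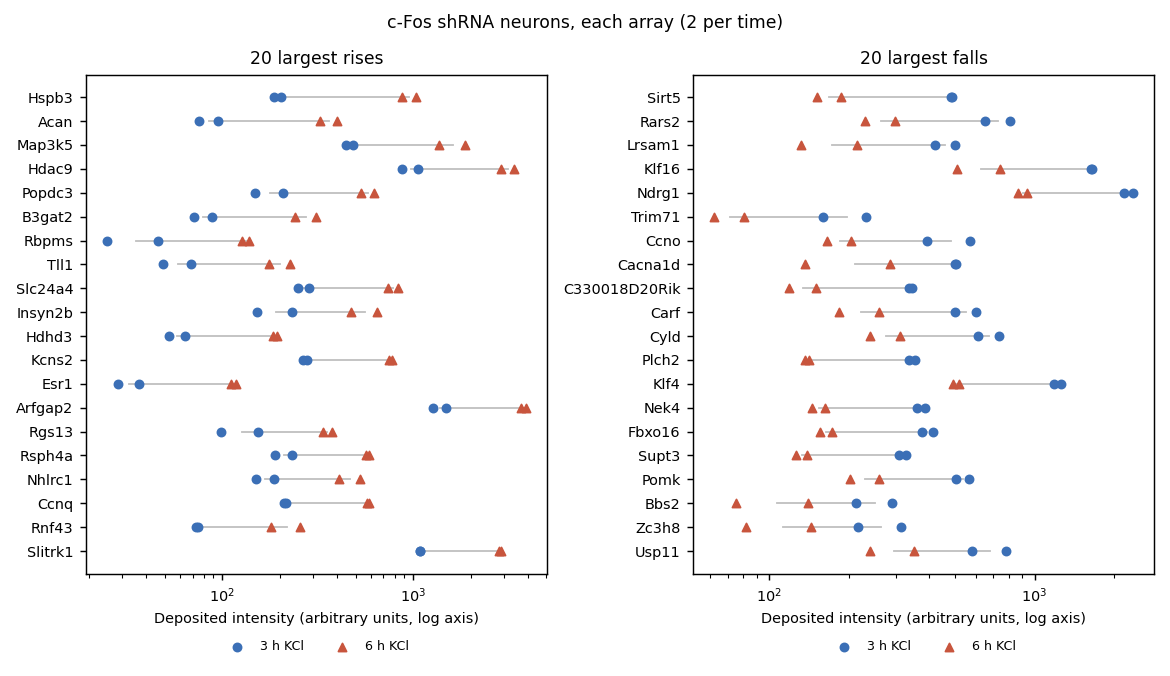
Deposited intensity (arbitrary units, log axis) on each of the 4 arrays for the 20 largest rises and the 20 largest falls from 3 h (circles) to 6 h (triangles) in c-Fos shRNA neurons, with a line joining the means. The rule required that the arrays of the times do not overlap, and Hspb3 shows the widest gap of the rises.

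Of the 1249 rises, 757 (60.6%) lay below their 0 h mean at 3 h, close to the 59.9% of all tested genes, and 380 (30.4%, against 56.8% of all) lay below it at 6 h. Slitrk1 averaged 3179 ± 85.2 (SD, n = 2) before KCl, 1088 ± 1.25 after 3 h and 2863 ± 54.7 after 6 h, while Hdac9 was 737 ± 80.0, 969.9 ± 138 and 3138 ± 370.0. Slitrk1 thus dipped and came back, whereas Hdac9 climbed above its starting level. Of the 1139 falls, 902 (79.2%) lay below the 0 h mean at 3 h and 1036 (91%) did at 6 h. Sirt5, for one, averaged 809 ± 46.5 before KCl, 488 ± 4.10 after 3 h and 169 ± 24.3 after 6 h. These 0 h comparisons use the 3 h and 6 h arrays that define the change and are a description.

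The rises and falls were also counted in groups set by contrasts that use none of the 4 arrays compared. All contrasts came from 1 fit, with a shared normalization and a shared estimate of each gene's spread. A gene of small spread is thus called more easily in both, and the shares below are a description. Genes not called between 0 h and 3 h in the control arm were called less often here (4.45% higher, 5.84% lower). Of 88 genes that were at least 2-fold higher at 1 h than at 0 h with c-Fos shRNA, 29 fell (33%, against 8.19% of all genes) and 6 rose (6.82%, against 8.98%) between 3 h and 6 h, a median of -0.26. Of 31 that were at least 2-fold lower at 1 h, 13 rose (41.9%) and 1 fell, a median of 0.43. With no minimum fold, 63 of the 273 genes called higher at 1 h fell (23.1%) and 20 rose (7.33%), a median of -0.12. Of the 195 called lower, 103 rose (52.8%) and 2 fell (1.03%), a median of 0.42. In the control arm, genes raised by KCl were sorted by the time of their highest mean. Of 107 that peaked there at 1 h, 31 fell (29%, against 8.19% of all genes) and 1 rose with c-Fos shRNA. Of 506 that peaked at 3 h, 78 fell (15.4%) and 7 rose (1.38%, against 8.98%). Of 1882 that were highest at 6 h, 598 rose (31.8%) and 2 fell.

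The arms shared most of the genes they called between 3 h and 6 h. In the control arm 1109 genes were higher (7.97%) and 1252 lower (9%). The higher genes of both arms shared 771, which is 61.7% of those with c-Fos shRNA and 69.5% of those with control shRNA. The lower genes shared 794, or 69.7% and 63.4%. A call in opposite directions occurred in 4 genes that were higher with c-Fos shRNA and 4 that were lower. Of the 478 rises that were not called in the control arm, 427 had the same sign there, with a control median of 0.19 against 0.45. The changes in the 2 arms correlated across the 13915 genes with r = 0.748 (Spearman correlation 0.689), a description over genes of arrays that share no sample.

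The test of the difference between the arms called 3 genes higher (0.0216%) and 8 lower (0.0575%), that is, a change from 3 h to 6 h that was more positive or more negative with c-Fos shRNA. An unadjusted p under 0.05 was reached by 779 genes, and with the replicate block 89 were higher and 89 lower. Without 1 of the 8 arrays 1 to 4 genes were called, so the call of most depends on all arrays. The median standard error was 0.19, against 0.14 for the change within the arm.

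Prrc1 and Slitrk1 had the smallest adjusted p-values. Slitrk1 was 1089 and 1087 at 3 h, against 2902 and 2825 at 6 h with c-Fos shRNA and 1395 and 1329 at 3 h, against 2035 and 2141 at 6 h with control shRNA. It rose by 1.37 and 0.60, a difference of 0.77 ± 0.082 (adjusted p = 0.00492). All 4 c-Fos shRNA arrays lay outside the range of the control arrays at the same time, lower at 3 h and higher at 6 h. Prrc1, which encodes a Golgi-associated protein, was 1537 and 1455 at 3 h, against 1023 and 1057 at 6 h with c-Fos shRNA and 486 and 534 at 3 h, against 760.0 and 757 at 6 h with control shRNA. It fell in the first and rose in the second, a difference of -1.09 ± 0.11 (adjusted p = 0.00379). Another tested Prrc1 probe set gave -0.27 and the third 0.23, neither called, so this difference rests on 1 probe set of 3. Without 1 array, Prrc1 kept its call in 8 of 8 runs and Slitrk1 in 6 of 8.

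Ndrg1 fell in both arms, and more with c-Fos shRNA, where the control arm was 2193 and 2553 at 3 h, against 1860.1 and 1791 at 6 h. The difference was -0.96 ± 0.13 (adjusted p = 0.028), and its 5 probe sets gave differences of -0.28 to -0.96, all in the same direction. It kept the call in 1 of 8 runs without 1 array. Met, a receptor tyrosine kinase gene of cortical development, was 5362 and 5179 at 3 h, against 3136 and 3562 at 6 h with c-Fos shRNA and 3459 and 3301 at 3 h, against 3105 and 3420.5 at 6 h with control shRNA (-0.57 ± 0.087, adjusted p = 0.0425). At 6 h its levels in the arms overlapped, while at 3 h both c-Fos shRNA arrays were higher.

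The other 7 genes were Arhgef17 (1.12 ± 0.17), the F-box genes Fbxl4 (0.88 ± 0.14), Fbxo25 (-1.08 ± 0.16) and Fbxo28 (-0.63 ± 0.096), Calhm5 (-1.60 ± 0.25), Tmem41a (-0.78 ± 0.12) and Zc2hc1a (-0.71 ± 0.11), each at an adjusted p = 0.0425. The other tested probe sets of Arhgef17 gave opposite differences, -0.23 and -0.985, neither called, and over all settings its difference went down to 0.0046. Those of Fbxo28 gave -0.15 and 0.022, neither called. Calhm5 was dim, 34.3 and 30.1 at 3 h, against 30.2 and 34.8 at 6 h with c-Fos shRNA, and 22.3 and 34.3 at 3 h, against 118 and 115 at 6 h with control shRNA. Several differed between the arms before KCl: at 0 h Fbxo25 was 2856 ± 117 with c-Fos shRNA and 1223 ± 72.1 in the control arm (SD, n = 2), and Zc2hc1a 5475 ± 9.35 and 2455 ± 148. Fbxo25 alone of these 7 kept its call in any run without 1 array, in 1 of 8.

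**Figure D4:**
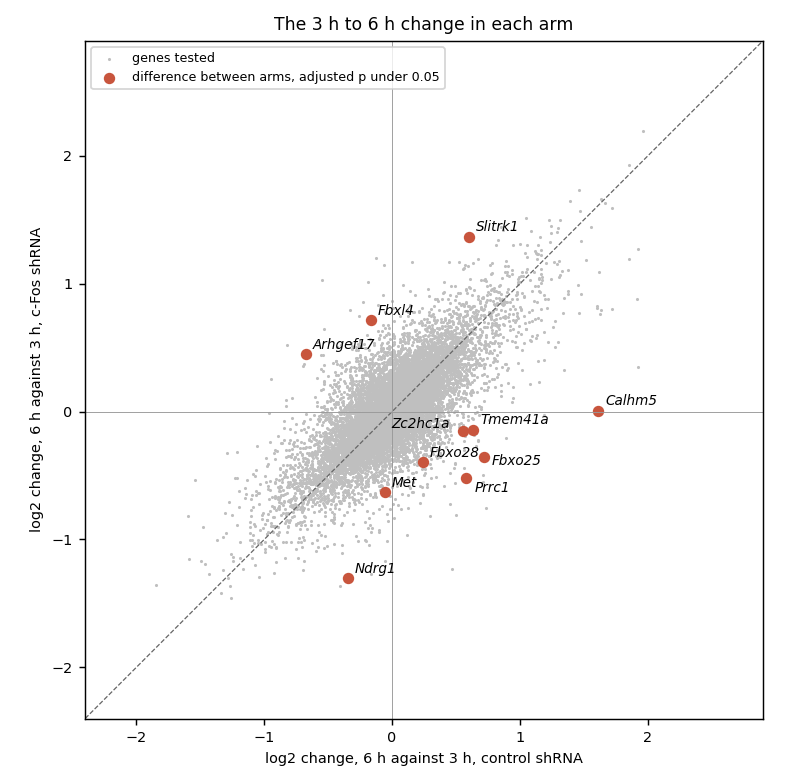
Each point is 1 of 13915 genes, placed by its log2 change from 3 h to 6 h with control shRNA (x) and with c-Fos shRNA (y), with a dashed line of equal change. The 11 named genes had an adjusted p under 0.05 for the difference between the arms, and most other genes lie along the line.

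**Figure D5:**
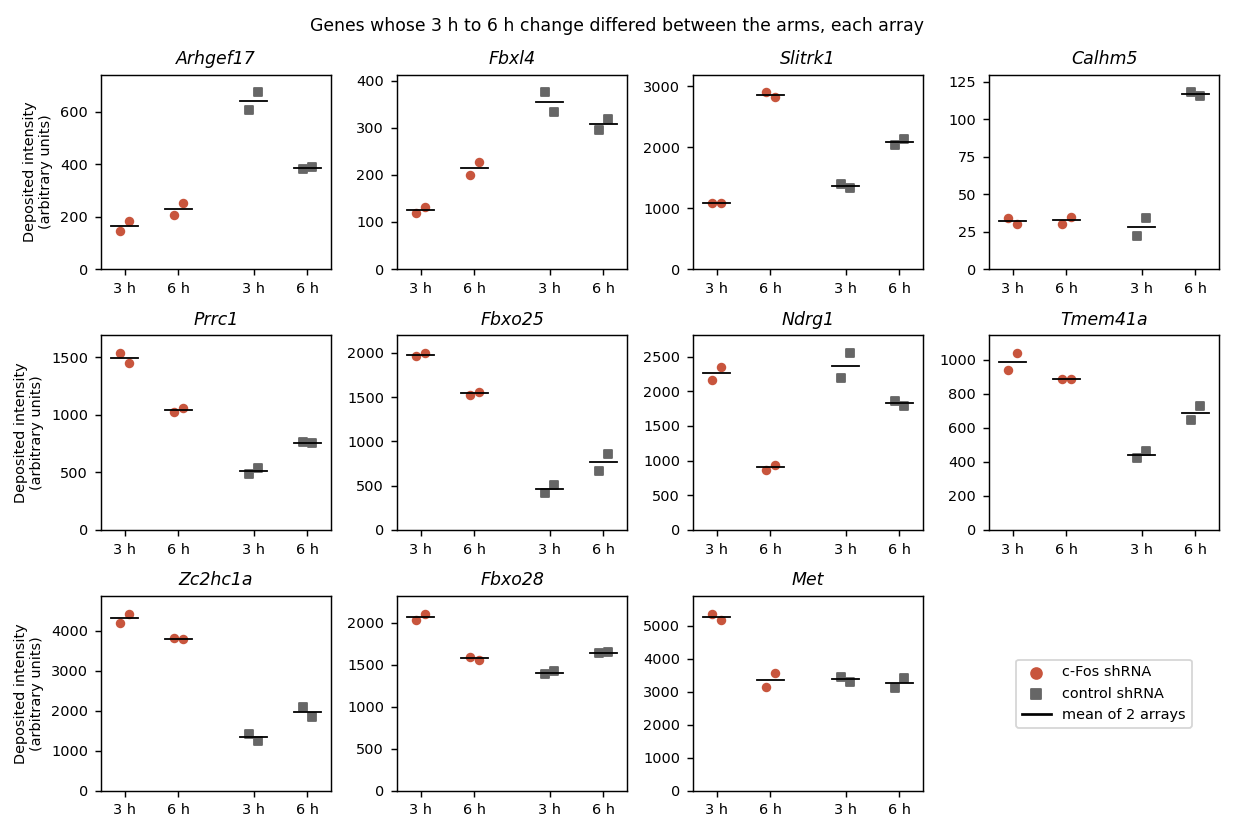
Deposited intensity (arbitrary units, linear axis from 0) on each of 8 arrays for the 11 genes whose change differed between the arms, with a bar at the mean of 2 arrays. Slitrk1 rises more with c-Fos shRNA, and Ndrg1 falls more.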

How the data were processed

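The deposited table gives 1 linear intensity per probe set and array, from 0.51 to 23935.63. Affymetrix processing is named, per the labels, with software and scaling not given in the sources used here. Of 45101 probe sets 64 were controls, and of the other 45037 34945 had 1 gene in the platform annotation, 932 had several and 9160 had none. By Entrez number 34741 matched RefSeq. Array medians ran from 104 to 118, so log2(intensity + 16) was quantile normalized. The probe set with the highest mean stood for a gene, and genes above the 30th percentile were tested. In 45 genes probe sets were called in opposite directions.

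limma 3.58.1 in R 4.3.3 fitted 8 group means over 16 arrays (8 residual degrees of freedom) with an intensity trend, and adjusted p-values are Benjamini-Hochberg values over all 13915 genes. The fit was tested on simulated data. Replicate numbers come from the array labels. Between all 28 pairs of groups the replicate differences correlated over 0.1 (0.364 to 0.596), so the numbers were taken to pair the arrays. The main fit leaves this pairing out, so calls and adjusted p-values given without mention of the block ignore it. A gene that it did not call is not thereby shown to be unchanged. A blocked value is given where it changes a named gene's call or moves a count by over 1.5 times. Other settings covered normalization, pseudocount, filter, probe set choice, trend and leaving out each array.

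The genes named are Fos, the 20 largest rises and falls as described, up to 8 genes each way for the arm difference, the AP-1 family and members of 33 lists with 581 symbols, 498 of them tested. Members and lists were chosen with earlier results of these data known. No detection calls were analysed here.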

Additional observations from a re-analysis of the deposited data

Results flagged for a closer look

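The change from 3 h to 6 h differed between the arms, by the test of the difference itself, in 11 genes. As log2 differences (c-Fos shRNA minus control shRNA) they were Arhgef17 at 1.12 (adjusted p = 0.0425), Fbxl4 at 0.88 (adjusted p = 0.0425), Slitrk1 at 0.77 (adjusted p = 0.00492), Calhm5 at -1.60 (adjusted p = 0.0425), Prrc1 at -1.09 (adjusted p = 0.00379), Fbxo25 at -1.08 (adjusted p = 0.0425), Ndrg1 at -0.96 (adjusted p = 0.028), Tmem41a at -0.78 (adjusted p = 0.0425), Zc2hc1a at -0.71 (adjusted p = 0.0425), Fbxo28 at -0.63 (adjusted p = 0.0425) and Met at -0.57 (adjusted p = 0.0425). Over the alternatives the adjusted p ran from 0.000116 to 0.9998 for Prrc1 and from 0.000167 to 0.285 for Slitrk1. The difference of Arhgef17 went down to 0.0046 over these alternatives. Arhgef17, Fbxl4, Calhm5, Tmem41a, Zc2hc1a, Fbxo28 and Met lost the call in each of the 8 runs without 1 array. Groups held 2 arrays each, too few to look for single arrays that stand apart.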

How the results depend on the processing

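With the replicate number as a block, the calls for c-Fos shRNA numbered 4692 (2312 higher, 2380 lower) against 2388 (1249 and 1139), those for control shRNA 4726 against 2361, and those for the difference between arms 178 against 11. With only the arrays compared they were 1454 (811 and 643), 896 and 0. By that fit the residual spread rests on fewer arrays. The mean over a gene's probe sets gave 723 lower genes for c-Fos shRNA and 4 for the difference. The difference also gave 2 genes without further normalization, 7 with arrays shifted to one median, 3 with no filter on dim genes, 2 with every probe set on its own and 6 without the intensity trend. Leaving out 1 array gave 1123 to 1617 calls for c-Fos shRNA (601 to 769 higher and 522 to 848 lower), 1327 to 1711 for control shRNA and 1 to 4 for the difference. The cause of these shifts was not tested. Of 122 called genes named or in lists, 61 kept their call without each array and 55 in every setting that tested them. The sign turned only in these cases. With the mean over probe sets Fosl2 was at 0.041, Jund at 0.057, Jdp2 at -0.15, Mafg at 0.0071 and the Prrc1 difference at 0.070. Leaving out 1 array gave Mafg -0.082 to 0.042, Batf3 -0.38 to 0.010 and Mafk -0.18 to 0.055. With the block, calls in the gene lists were added and, where it moved a list's count by over 1.5 times or changed a named gene's call, it is given beside that list or gene. No detection calls were analysed here, so dim probe sets have no tested floor, and 2 arrays a group limit the precision.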
